A study of Homo sapiens with 4 samples.

Results

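Binding of RUNX1 and ETS1 was mapped at the genes of the G1 cell-cycle engine, which are the D cyclins CCND1, CCND2 and CCND3, the kinases CDK4 and CDK6, and the inhibitors CDKN1A, CDKN1B, CDKN2A, CDKN2C and CDKN2D. These 10 genes, of 19821 protein-coding genes on chromosomes 1 to 22 and X, were chosen by name, and every peak inside a gene or within 100 kb of its RefSeq bounds was taken. Binding was measured by CUT&Tag, in which the transposase Tn5 is tethered by an antibody and cuts the chromatin next to the bound protein, so that the released fragments can be sequenced. The cells were 6T-CEM, an established cell line from human T-cell acute lymphoblastic leukaemia, or T-ALL, with 2 libraries for RUNX1 and 2 for ETS1, and each peak list was called against IgG. The labels name no treatment or genetic change of the cells, and nothing in them says that the libraries of an antibody came from separate cultures, so the spread between libraries and any p-value over them may be technical. All coordinates are hg38.

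D cyclins activate CDK4 and CDK6, and the resulting kinases phosphorylate the retinoblastoma protein, which releases E2F transcription factors and lets a cell enter S phase. CDKN2A, CDKN2C and CDKN2D belong to the INK4 class of inhibitors, which bind CDK4 and CDK6 and keep D cyclins off them, while CDKN1A and CDKN1B belong to the CIP/KIP class, which bind assembled cyclin-kinase complexes. In the mouse, Ccnd3 is the D cyclin on which the expansion of immature thymocytes depends. In human T-ALL the CDKN2A locus is frequently deleted.

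The RUNX1 libraries held 25356 and 24997 peaks on these chromosomes and the ETS1 libraries 6070 and 5611. The lists give no read totals. The pileup, which is the number of fragments stacked at a summit, was solved from each peak's deposited fold and p, and had a median of 75 and 71 in the RUNX1 libraries and 54 and 51 in the ETS1 libraries. Peaks of both libraries of an antibody that touched or overlapped were merged, and only regions with peaks from both libraries were kept, which left 22802 RUNX1 and 5055 ETS1 regions. The fold over IgG is the authors' value for the strongest peak of a library in the region, and it is used only to describe and rank regions within their own list. The median fold was 8.20 over all RUNX1 regions and 5.82 over all ETS1 regions. Of the T-lineage marker genes CD3D, CD3E, CD3G, CD2, CD7, CD1A, PTCRA and LCK, 8 of 8 had a RUNX1 region and 4 of 8 an ETS1 region within 1 kb of an end. For RUNX1 and ETS1 the counts were 2 and 0 of 5 B-lineage, 1 and 0 of 5 myeloid, and 2 and 0 of 5 erythroid marker genes, which describes binding and not expression. Over all genes 47.2% had RUNX1 and 19.0% ETS1 at an end, so the RUNX1 counts of the B and erythroid lists are near that share.

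Promoter sequence was at hand for 8 of the 10 genes, as 14 windows reaching from 250 bases before to 50 bases after a transcript start (RefSeq, GRCh38.p14). The 4 windows below are the ones in which at least 1 summit of each factor fell. In the CDK6 window the ETS1 summit is that of library 2 only. Overlapping RUNX1 and ETS1 regions at the CDK4 start and the second CDKN2C start had ETS1 summits outside their windows, so those windows are not printed. They read 5′ to 3′ in the direction of transcription. Capitals mark the core letters of the ETS site, GGAA, and of the RUNX site, TGTGG or TGCGG, on either strand, so that TTCC, CCACA and CCGCA are the same letters read on the other strand. In CCND3 the run TTCCTG is the longer ETS word CAGGAA on the other strand.
CCND3 chr6:42048639-42048938, minus strand: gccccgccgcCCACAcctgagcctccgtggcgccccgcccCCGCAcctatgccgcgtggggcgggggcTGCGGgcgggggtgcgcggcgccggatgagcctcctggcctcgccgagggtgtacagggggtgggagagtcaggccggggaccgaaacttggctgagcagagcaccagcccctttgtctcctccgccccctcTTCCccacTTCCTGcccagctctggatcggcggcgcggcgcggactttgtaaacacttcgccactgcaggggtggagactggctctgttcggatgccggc
CDK6 chr7:92833910-92834209, minus strand: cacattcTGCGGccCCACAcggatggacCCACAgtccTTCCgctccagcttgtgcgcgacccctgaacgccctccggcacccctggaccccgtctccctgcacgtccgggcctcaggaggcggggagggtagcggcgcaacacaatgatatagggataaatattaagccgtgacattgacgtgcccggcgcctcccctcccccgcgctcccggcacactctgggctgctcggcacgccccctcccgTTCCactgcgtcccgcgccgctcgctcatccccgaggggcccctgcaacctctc
CDKN1B chr12:12717118-12717417, plus strand: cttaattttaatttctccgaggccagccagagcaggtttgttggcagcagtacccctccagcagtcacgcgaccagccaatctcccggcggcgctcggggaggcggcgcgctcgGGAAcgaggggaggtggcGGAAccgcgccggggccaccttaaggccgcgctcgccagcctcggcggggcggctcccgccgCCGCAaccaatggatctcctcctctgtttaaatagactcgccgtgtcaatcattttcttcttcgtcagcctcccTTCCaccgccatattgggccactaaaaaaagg
CDKN2D chr19:10568930-10569229, minus strand: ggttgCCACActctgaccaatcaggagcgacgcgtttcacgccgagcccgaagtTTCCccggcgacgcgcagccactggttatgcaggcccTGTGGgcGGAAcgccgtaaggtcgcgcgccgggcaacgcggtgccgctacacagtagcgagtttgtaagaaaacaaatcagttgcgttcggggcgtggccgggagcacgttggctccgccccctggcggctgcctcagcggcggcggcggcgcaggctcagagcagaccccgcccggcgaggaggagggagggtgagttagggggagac

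Over the 14 windows, CCGGAA or CAGGAA, the longer ETS words, was present in 5, against 41.4% of all 34961 promoters in the table. TGTGGT or TGCGGT, the longer RUNX words, was present in 0 of the 14, against 19.6% of all promoters. The shorter cores were common everywhere: GGAA was in 14 of 14 windows and 95.5% of all promoters, and TGTGG or TGCGG in 13 of 14 windows and 72.9% of all promoters. A match is a description of letters, and a window without one says only that the letters are not in those 300 bases. In the CCND3 window the centre of the CAGGAA word lay 7.5 bp from the nearest RUNX1 summit and 90.5 bp from the nearest ETS1 summit. In the CDKN2D window all 4 summits lay 2 bp downstream of the transcript start, and the nearest core letters were 152.5 bp away.

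**Figure D1:**
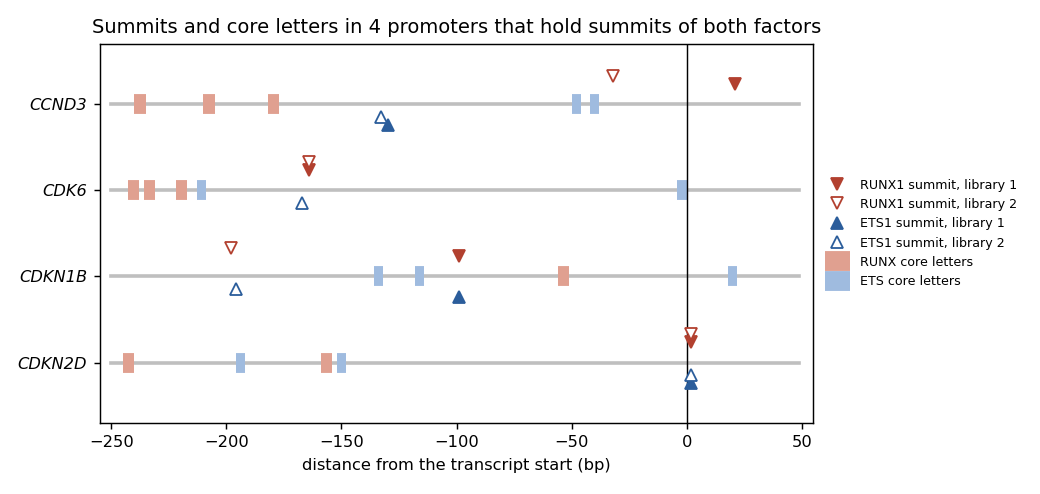
Summits and core letters in the 4 printed promoters, with the distance from the transcript start in bp on the x axis. Downward triangles are RUNX1 summits and upward triangles ETS1 summits (filled, library 1; open, library 2), and coloured blocks mark ETS and RUNX core letters; in CDKN2D all 4 summits stand 2 bp downstream of the start, away from any block.

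RUNX1 bound in or around 9 of the 10 genes and ETS1 around 7, and 3 genes held most of the regions. There were 62 RUNX1 regions, of which 9 lay at a gene end (touching the 1 kb around an outermost end), 14 inside the gene and 39 outside it within 100 kb. There were 26 ETS1 regions, of which 8 lay at an end, 6 inside and 12 outside. The windows of CCND3, CDK4 and CDKN2D together held 34 of the 62 RUNX1 and 20 of the 26 ETS1 regions. CDKN2A had neither factor, and CCND1 and CCND2 had RUNX1 without ETS1.

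Against all protein-coding genes, 7 of the 10 genes had a RUNX1 region at an end, where 47.2% of all genes had one, and 5 of 10 had an ETS1 region there, where 19.0% did. A RUNX1 region in the gene or within 100 kb was found for 9 of 10, against 82.7% of all genes, and an ETS1 region for 7 of 10, against 49.7%. Within 1 kb of a transcript start of the promoter table, 6 of the 8 listed genes had RUNX1, against 48.9% of all genes, and 6 of 8 had ETS1, against 20.3%. The RUNX1 count over windows is near its background, and with 10 genes none of these counts was tested. The median number of regions per window over all genes was 3 for RUNX1 (quartiles 1 and 7) and 0 for ETS1 (quartiles 0 and 2).

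**Figure D2:**
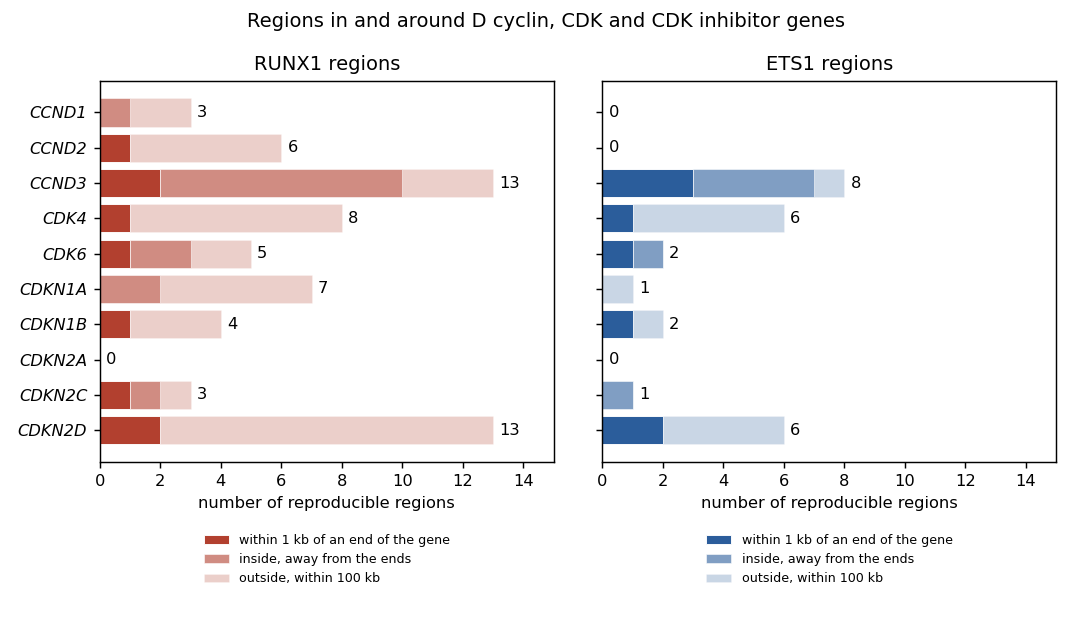
Number of reproducible regions (x axis) at each gene (y axis), RUNX1 on the left and ETS1 on the right, split by place. CCND3 and CDKN2D each had 13 RUNX1 regions, CCND3 had 8 ETS1 regions, and CDKN2A had none of either.

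Counted as single peaks, the RUNX1 libraries had 68 and 67 near these genes and the ETS1 libraries 34 and 29, so the groups did not overlap. The means were 67.5 ± 0.707 for RUNX1 and 31.5 ± 3.54 for ETS1 (SD, n = 2 each), a difference of 36 (two-sided exact permutation test, p = 0.33, the smallest that 2 against 2 libraries can give). Within 10 kb of the genes the difference was 11, with the same p. RUNX1 thus had 2.14 times as many peaks near these genes as ETS1, and 4.31 times as many over all peaks.

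CCND3 had the most regions inside it of the 10 genes. It spans chr6:41934933-42050035, a length of 115.1 kb on the minus strand, and the promoter table gives it an upstream start at 42048688 and inner starts at 41941808 and 41939205. In all, 10 RUNX1 and 6 ETS1 regions touched the gene and covered 16.6% and 7.10% of its length. As many RUNX1 regions lay inside 89 genes, which is 0.827% of the 10763 genes with any. As many ETS1 regions lay inside 7 genes, which is 0.174% of 4017. These shares are over genes of every length and are not matched to the 115.1 kb of CCND3. By the number of regions inside and gene length, the genes most like CCND3 were ZNRF1 with 11 RUNX1 and 4 ETS1 regions over 112.0 kb, KCNAB2 with 8 and 4 over 108.5 kb, and NOL4L with 10 and 4 over 142.3 kb.

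**Figure D3:**
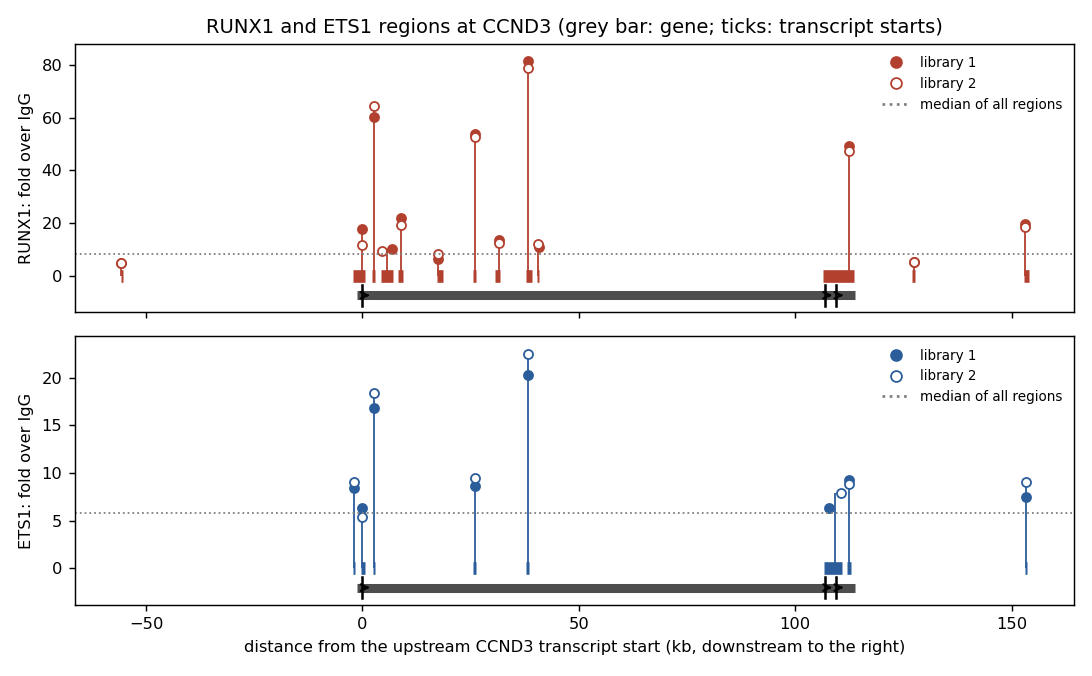
RUNX1 (top) and ETS1 (bottom) regions at CCND3, drawn by distance from the upstream transcript start in kb (x axis, downstream to the right) and fold over IgG (y axis, a separate scale for each antibody). Thick coloured bars are regions, circles the libraries, the grey bar the gene and black ticks its transcript starts; the highest points of both antibodies stand 38.2 and 38.3 kb downstream of the upstream start, and 65.7 kb before the 3′ cluster hold no RUNX1 region.

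The strongest sites lay inside the gene and not at its upstream start. The highest RUNX1 fold, 81.3 and 78.9, was at 42009572-42010931, 38.2 kb downstream of the upstream start, and ranked 131 of 22802 RUNX1 regions (99.4% were weaker). The pileup there was 585 and 543. The same site had the highest ETS1 fold of all 10 windows, 20.3 and 22.5, which ranked 83 of 5055. In library 1 the RUNX1 and ETS1 summits fell on the same base, and in library 2 they were 127 bp apart. The RUNX1 summits, 1 bp apart, lay at most 222 bp upstream of the start of LOC105375059, an uncharacterised RefSeq gene.

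Next in order was 42045673-42046474, 2.76 kb downstream of the upstream start, with a RUNX1 fold of 60.2 and 64.2 and an ETS1 fold of 16.8 and 18.4. It ranked 243 among RUNX1 and 133 among ETS1 regions, and the summits were 0 and 10 bp apart in the 2 library pairs. A further site at 42022386-42023211, 26.0 kb downstream, had a RUNX1 fold of 53.7 and 52.7 and an ETS1 fold of 8.63 and 9.46, with summits 1 bp apart in both pairs. The libraries of an antibody thus differed little at these sites, whose mean folds were 80.1 ± 1.75, 62.2 ± 2.81 and 53.2 ± 0.718 for RUNX1 and 21.4 ± 1.59, 17.6 ± 1.15 and 9.04 ± 0.591 for ETS1 (SD, n = 2).

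At the other end of the gene, RUNX1 formed a single region of 7207 bp at 41935003-41942209, wider than 99.7% of its list. It covered both inner starts and ran to the 3′ end. Its fold was 49.0 and 47.4, with both summits on the same base 2988 bp downstream of the innermost start. ETS1 had 2 regions under it. The one nearer the 3′ end had a fold of 9.24 and 8.86 and its summit 77 bp from that of RUNX1 in both pairs. The other, at 41937877-41942120, was 1 peak of 6.27-fold in library 1, with its summit at 41940843, and 3 peaks in library 2. The strongest of the library 2 peaks had a fold of 7.87, and its summit lay 2671 bp from that of library 1. Another library 2 peak, of 5.82-fold, had its summit at 41940842, on the base next to the library 1 summit. Between this end and the next region upstream, 65.7 kb of the gene held no RUNX1 region and 68.0 kb no ETS1 region.

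The upstream start itself had lower folds, over a high IgG expectation. The RUNX1 region there, at 42048033-42050864, had a fold of 17.9 and 11.8, the largest ratio between libraries of any RUNX1 region near the 10 genes (1.52). Its summits lay 21 bp downstream and 32 bp upstream of the start, inside the printed sequence. ETS1 had a fold of 6.37 and 5.36 with summits 130 and 133 bp upstream. A second ETS1 region, of 8.41 and 9.02, lay at the upper-coordinate end of CCND3. Its summits were 558 bp beyond that bound and 1905 bp upstream of the start, also at an end of the neighbouring TAF8. By fold, 77.9% of RUNX1 and 50.6% of ETS1 regions ranked below those at the CCND3 start. By pileup 91.2% of RUNX1 and 82.2% of ETS1 regions ranked below, and by IgG expectation 90.2% and 84.2%.

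The remaining 5 RUNX1 regions inside CCND3 had no reproducible ETS1 region. Their folds were 21.97 and 19.1 at 42039271, 13.4 and 12.6 at 42016882, 11.1 and 12.1 at 42007890, 10.4 and 9.38 at 42041539, and 6.27 and 8.36 at 42030008 (start of the region). All but the last were above the RUNX1 median of 8.20 by fold. The pileup ordered them otherwise. At 42007890 it was 33 and 35, higher than in 7.42% of RUNX1 regions, over an IgG expectation of 2.07 and 1.97. At 42030008 it was 83 and 95, higher than in 55.3%. An ETS1 peak of 1 library lay over 4 of these 5 regions, with a fold of 8.51, 3.37 and 2.97 in library 1 and 4.58 in library 2. With these, 9 of the 10 RUNX1 regions touching CCND3 held an ETS1 peak of at least 1 library, and the exception was the region at 42016882. Outside the gene, RUNX1 lay at an end of USP49 (19.7 and 18.5, with ETS1 at 7.51 and 9.06), at BYSL and MED20 (5.22 and 5.31) and inside C6orf132 (4.998 and 4.75).

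The other D cyclins carried RUNX1 alone and mostly away from their ends. At CCND1 (chr11:69641156-69654474) a weak region inside the gene had a fold of 5.31 and 5.55, and the strongest was a distal region 82.1 kb outside it, at 69558371-69559504, with 28.7 and 29.4. No ETS1 summit was nearer than 1181 kb. At CCND2 (chr12:4273762-4305353) a region at the lower-coordinate end had a fold of 7.23 and 7.75, and the strongest was at an end of TIGAR, a fructose-bisphosphatase gene, with 19.5 and 15.8. For ETS1 the closest summit to CCND2 stood 233.4 kb off. Neither D cyclin had a RUNX1 region inside or at its ends above the RUNX1 median of 8.20.

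Among the kinases, CDK6 resembled CCND3 in having its highest RUNX1 folds inside the gene. CDK4 had a low fold at its start, with higher RUNX1 folds at some neighbours and lower ones at others. CDK6 (chr7:92604921-92836573, minus strand) had a RUNX1 fold of 42.0 and 43.4 at 92639728-92640431 and of 23.2 and 24.5 at 92755117-92755867. At the first of these the pileup was 115 in both libraries, and the IgG expectation of 1.76 and 1.67 was lower than in all but 0.925% of RUNX1 regions, so its rank by fold (97.0% weaker) exceeds its rank by pileup (67.1% lower). Neither site had a reproducible ETS1 region, although ETS1 library 1 had a peak of 9.09-fold at the first. Over both CDK6 starts lay a RUNX1 region of 3626 bp with a fold of 12.5 and 12.9, whose summits were 164 bp upstream of the inner start. ETS1 had a fold of 5.61 and 9.43 at that start, with summits 68 bp downstream in library 1 and 167 bp upstream in library 2, and of 4.60 and 4.42 at the outer start, 174 and 210 bp upstream.

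CDK4 (chr12:57747727-57752310, minus strand) had a RUNX1 fold of 5.93 and 6.76 with summits 246 bp upstream of its start, and an ETS1 fold of 4.47 and 4.40 with summits 314 bp upstream. Both were below the median of their list. The IgG expectation at the RUNX1 summit, 23.4 and 21.6, was higher than in 96.4% of RUNX1 regions, and the pileup of 144 and 152 was higher than in 76.3%. The other 7 RUNX1 and 5 ETS1 regions of the CDK4 window all lay at ends of other genes. By fold, the strongest RUNX1 region was at CTDSP2 (14.7 and 16.2). The pileup at CTDSP2, 137 and 144, was below that at the CDK4 start. The strongest ETS1 region by fold was at MARCHF9 (7.02 and 7.16, over a RUNX1 region of 10.8 and 11.5).

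**Figure D4:**
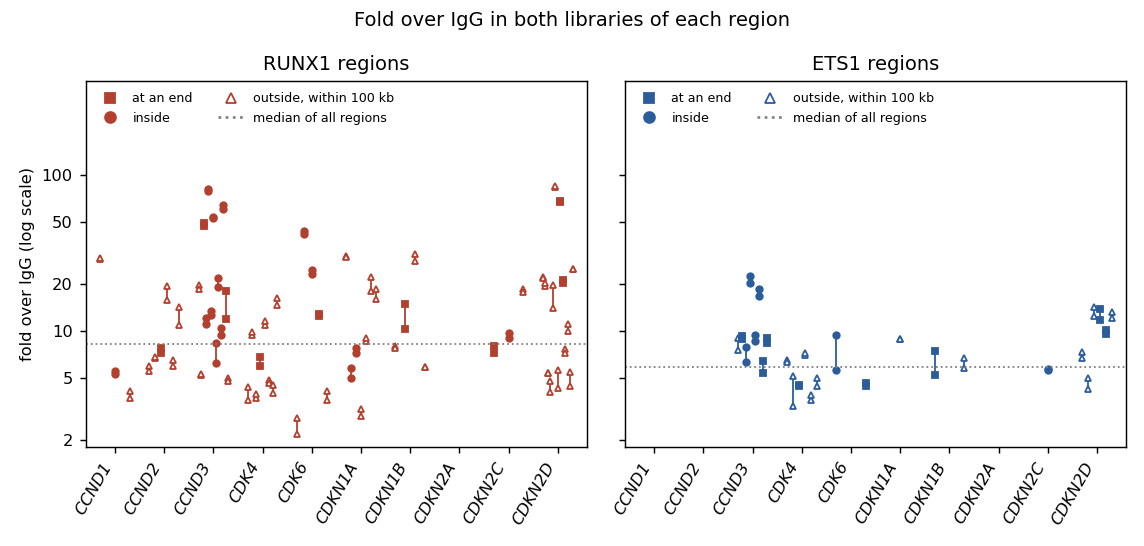
Fold over IgG (y axis, log scale) of every region near each gene (x axis), with RUNX1 on the left and ETS1 on the right. Symbols joined by a line are the 2 libraries of a region, their shape gives its place, and the dotted line is the median of all regions of that antibody; the highest RUNX1 values belong to CCND3 and CDKN2D, and CCND1, CCND2 and CDKN2A are empty for ETS1.

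Among the INK4 inhibitors, CDKN2D and CDKN2A were at opposite extremes. CDKN2D (chr19:10566460-10568979, minus strand) is only 2.52 kb long and had RUNX1 and ETS1 at both ends. At its start the RUNX1 fold was 21.3 and 20.4 and the ETS1 fold 9.57 and 10.1, higher than 87.0% and 86.1% of their lists, with the 4 summits on the same base of the printed sequence. Just beyond its 3′ end, in a region shared with the start of KRI1, a ribosome biogenesis factor gene, the RUNX1 fold was 68.0 and 66.8 and the ETS1 fold 11.8 and 13.8. The RUNX1 summits were 157 bp upstream of the KRI1 start in both libraries, and those of ETS1 lay 0 and 1 bp from them.

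The strongest RUNX1 region of all 10 windows was also in that of CDKN2D, 12.3 kb from the gene. It lay at 10551492-10556169, inside KRI1 and at an end of ATG4D, with a fold of 83.3 and 84.8 and a pileup of 1173 and 1139. Its rank was 116 of 22802. An ETS1 region of 12.4 and 14.2-fold had its summit 0 and 5 bp from that of RUNX1. The CDKN2D window holds many genes, and 7 of its 11 outside RUNX1 regions and 4 of 4 outside ETS1 regions lay at an end of another gene.

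CDKN2C (chr1:50960745-50974634, plus strand) had moderate sites. Upstream of its first start, in a region also at an end of FAF1, RUNX1 had a fold of 7.16 and 8.05. At its second start RUNX1 had 9.76 and 9.01 and ETS1 5.57 and 5.73, with summits 308 bp (RUNX1) and 263 and 259 bp (ETS1) upstream of that start. Its strongest RUNX1 region, 18.5 and 17.7, lay 3.84 kb past the upper-coordinate end of the gene, outside any other protein-coding gene. Of the ETS1 libraries, library 1 alone had a peak there (4.75).

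CDKN2A (chr9:21967752-21995324, minus strand) had no peak in any of the 4 libraries. It lies in a stretch of 422.3 kb without a peak, from 21803259 to 22225604, that also holds its neighbour CDKN2B, another INK4 inhibitor, and no other coding gene entirely. Of 26917 peak-free stretches, 1311 were at least as long, and 608 of those held at least as many coding genes. The nearest RUNX1 summit was 165.0 kb and the nearest ETS1 summit 6414 kb from CDKN2A. ETS1 had no region in 17.5 Mb around the gene, a length reached by 9 of 5032 stretches between ETS1 regions, while 21 RUNX1 regions lay in the same span. In all, 17.3% of genes had no RUNX1 region within 100 kb and 50.3% no ETS1 region. A peak list holds no value for a stretch without peaks, so unbound DNA and missing DNA cannot be told apart there.

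The CIP/KIP inhibitors differed at their starts. CDKN1B (chr12:12717368-12722369, plus strand) had RUNX1 at 10.2 and 14.8-fold and ETS1 at 5.22 and 7.40-fold, with the summits of both factors 99 bp upstream of its start in library 1 and 198 bp (RUNX1) and 196 bp (ETS1) upstream in library 2. The region also touches an end of GPR19. The strongest RUNX1 site of its window was at an end of APOLD1, with a fold of 31.3 and 28.2, where ETS1 had 6.73 and 5.78. CDKN1A (chr6:36676463-36687332, plus strand), a target of p53, had no region of either factor at an end. RUNX1 was weak inside the gene, with a fold of 5.74 and 5.003 at a site 1754 bp downstream of its start and of 7.23 and 7.80 farther along. At the start itself RUNX1 library 1 alone had a peak, of 3.40-fold. The strongest sites of the CDKN1A window were at an end of SRSF3, a splicing factor gene 82.3 kb away, with a RUNX1 fold of 30.2 and 29.9 and an ETS1 fold of 8.83 and 8.84 and summits 4 bp apart in both pairs.

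All 26 ETS1 regions near the 10 genes overlapped a RUNX1 region (Wilson 95% interval from 87.1%), as did 98.0% of ETS1 regions genome-wide. In the other direction, 21 of 62 RUNX1 regions, or 33.9% (Wilson 95% interval 23.3% to 46.3%), held ETS1, against 20.6% of all RUNX1 regions (20.1% to 21.1%). These intervals cover counting error only. By place the share was 7 of 9 at gene ends, 4 of 14 inside and 10 of 39 outside. No share by place over all RUNX1 regions is given here, so these counts cannot be called particular to the 10 genes. The comparison with 20.6% is not matched for place either. RUNX1 regions with ETS1 had a median fold of 20.8 and those without 7.44, and over all RUNX1 regions the medians were 14.8 and 7.22. The range was wide in both kinds: the weakest RUNX1 region with ETS1 had a fold of 4.75 and the strongest without it 42.7, the CDK6 site.

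The 26 pairs of overlapping regions had a median distance between summits of 65 bp, against 60 bp over all 4961 pairs. It was within 100 bp in 16 of 26 pairs, or 61.5%, against 64.5% of all pairs, and within 10 bp in 9. Spearman's rho between the RUNX1 and ETS1 folds was 0.68 over the 26 pairs and 0.39 over all pairs, as a description, since pairs in a window share a RUNX1 region in some cases and both antibodies' folds are set against IgG. Peaks found in a single library near these genes numbered 10 for RUNX1 (2.78 to 6.63-fold), all below the RUNX1 median, and 9 for ETS1 (2.97 to 9.09-fold). Of the ETS1 peaks, those at CDK6 (9.09) and at CCND3 (8.51) were above the ETS1 median of 5.82. The CCND3 peak had a pileup of only 22 over an IgG expectation of 1.70, where the median pileup of ETS1 library 1 was 54. The CDK6 peak lay over the RUNX1 region with an IgG expectation of 1.76 and 1.67. Of the 9 ETS1 peaks 8 came from library 1, and all 9 lay over a reproducible RUNX1 region, as did 93.1% of such ETS1 peaks genome-wide. None of the 10 RUNX1 peaks of this kind lay over an ETS1 region, against 0.972% genome-wide.

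**Figure D5:**
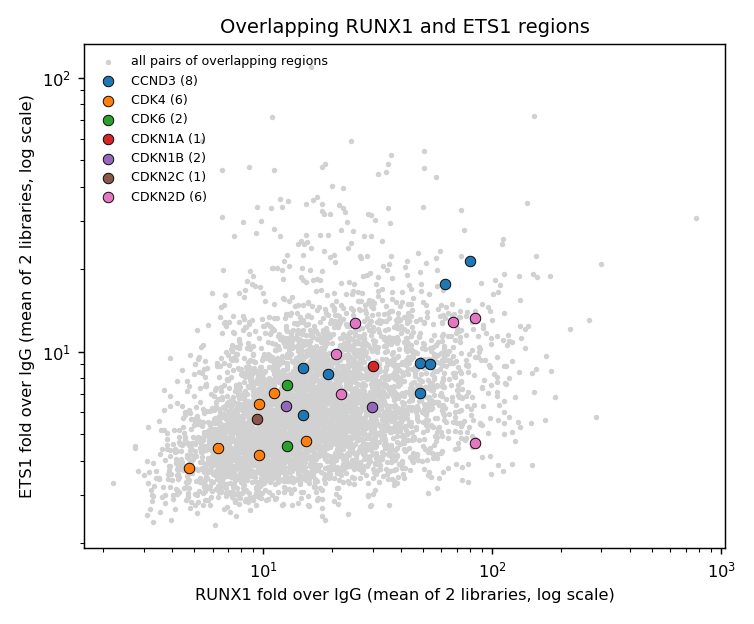
RUNX1 fold over IgG (x axis) against ETS1 fold over IgG (y axis), both log scales and means of 2 libraries, for pairs of overlapping regions. Grey points are all 4961 pairs and coloured points the 26 pairs near the genes, with their number per gene in the key; CCND3 and CDKN2D hold the points at the upper right, and CDK4 those at the lower left.

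Of 28 other genes of the cell cycle around these members, 21 had RUNX1 and 10 had ETS1 at an end, and the 10 had both. The share with RUNX1 at an end over all genes was 47.2% and with ETS1 19.0%. The highest RUNX1 folds were at E2F2 (58.1 and 62.1), the CDK4 chaperone partner CDC37 (16.2 and 15.1), E2F1 (18.1 and 12.0) and E2F3 (16.8 and 12.9), of which the E2F genes encode the transcription factors released by phosphorylated retinoblastoma protein. The highest ETS1 folds were at CKS1B (10.6 and 11.3), which encodes a small subunit that binds CDKs, and at CDC37 (9.41 and 10.8), E2F2 (6.86 and 8.08) and E2F3 (7.62 and 5.46). The median fold at an end was 6.66 for RUNX1 and 5.15 for ETS1, below the medians of all regions of each antibody.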

How the data were processed

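CUT&Tag of RUNX1 and ETS1 in 6T-CEM cells gave 4 peak lists, 2 per antibody. Per the submitters' processing notes, bcl2fastq 2.17, Bowtie2 and MACS3 3.0.0a6 were used with hg38; per the labels, peaks were called in each library against IgG. Values of −log10 q in the deposited lists start at 5.00 to 5.03; the call threshold, like mapping filters and duplicate handling, was not given in the sources used here. Per peak, the authors' deposited values are a ratio (the fold over IgG), −log10 q and −log10 p, a score that was not used further, and the summit position. Low IgG raises a fold, so pileups are given where this matters.

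From these, the pileup and IgG expectation were solved from fold and −log10 p by the MACS formulas (pseudocount 1), with a solution for 100% of peaks, and the solver was tested on simulated data. Read depth is unknown. Regions, ends (1000 bp) and overlap (1 bp) are defined in the report, and the gene bounds come from RefSeq GRCh38.p14. Python 3.11.15, pandas 2.3.3, NumPy 2.4.6, SciPy 1.17.1 and matplotlib 3.10.9 were used. The genes, lists and tests were chosen with earlier results of these data known. Each gene's end regions, its strongest region per antibody, and every region inside CCND3 are named; of the 28 other pathway genes, the 4 highest per antibody are named. Likeness to CCND3 is the Euclidean distance over log2 of region counts inside plus 1 and of length. The short motif cores, the count of single-library peaks over the other factor's regions and the share without the CCND3 window were added after seeing the data. Alternatives were peaks in either library, a stricter q, wider merging, other windows, ends and overlaps, equal peak numbers, and leaving out each replicate. The result at 1 neighbouring gene is not reported here.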

Additional observations from a re-analysis of the deposited data

How the results depend on the processing

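There were 67 alternative values over 10 results. A reversal was possible only for the difference in peak number, which kept its sign under each of its alternatives. Among the counts of regions and genes and the share, 7 values moved by over 1.5 times, or out of the interval of the share. The 62 RUNX1 regions became 32 with a window of 10 kb and 22 when each library was reduced to 5611 peaks. The 26 ETS1 regions became 16 with −log10 q of at least 20, where 3 of the 10 genes, and not 5, had ETS1 at an end. The share of RUNX1 regions holding ETS1, 33.9%, was 22.6% with a reciprocal overlap of 50%, 63.6% with equal peak numbers, and 30.6% without the CCND3 window, an alternative chosen after seeing the data. The share over all RUNX1 regions, 20.6%, was not recomputed under changed overlap, peak or library settings, so shares under those settings have no background. ETS1 regions touching CCND3 were 10, and not 6, when a peak in either library was enough. Leaving out a replicate gave 67 to 68 RUNX1 and 29 to 34 ETS1 regions, a share of 32.8% to 42.6%, 10 to 11 RUNX1 and 9 ETS1 regions touching CCND3, and a difference in peak number of 34 to 38. That difference, 36 over the full windows, was 11 with a window of 10 kb and 27 with −log10 q of at least 20. With the replicate block the difference was 36 (exact permutation, p = 0.5, the smallest possible for 2 pairs). Whether libraries of the same number belong together across antibodies is not in the labels. The log2 ratio of fold between library 1 and library 2 had r = 0.02 between antibodies over 4961 shared regions. This value cannot settle the pairing, since libraries of one culture need not share such ratios. Read depth is unknown, and median pileups of 51 to 75 limit the precision at weak regions.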
